A study of Mus musculus with 20 samples.

Results

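A set of 10 genes of calcium release, uptake and exchange were followed across mouse heart ventricle expressing the tetracycline-controlled transactivator (tTA), with and without doxycycline (Doxy). The genes were Ryr2, Cacna1c, Itpr1, Itpr2 and Fkbp1a for release and entry, Slc8a1 for exchange, and Atp2a2, Casq2, Casq1 and Calr for uptake and storage. They were found by taking each probe set that the platform annotation links to one of these genes and to no other. This gave 14 of the 12422 probe sets that measure transcripts, for 9 of the 10 genes. Itpr1 had no linked probe set and was not analysed here. Of the 14 probe sets, 10 for 8 genes were among the brightest 60% and entered the tests.

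Total RNA from ventricle was hybridised to Affymetrix arrays. The groups were tTA transgenic hearts with Doxy (tTA + Doxy, 5 arrays), tTA transgenic hearts without Doxy (tTA, 8 arrays), FVBN hearts with Doxy (FVBN + Doxy, 4 arrays) and FVBN hearts without Doxy (FVBN control, 2 arrays). FVBN is the inbred background strain and carries no transgene, and the keywords name the alpha MHC promoter, which is active in cardiac muscle cells. Doxycycline binds tTA and stops it from activating its target promoter, while tTA protein itself is still made. The labels give no age, sex, transgenic line, Doxy dose or Doxy duration, and do not say that each array is a separate animal, so the p-values measure the spread between arrays, which may be technical.

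In a ventricular muscle cell, each heartbeat starts with calcium entry through the L-type channel, whose pore is Cacna1c. That entry opens Ryr2, the ryanodine receptor, which releases the calcium held in the sarcoplasmic reticulum. Relaxation follows as the pump Atp2a2 (SERCA2) returns calcium to that store, where calsequestrin binds it, and as the exchanger Slc8a1 (NCX1) moves calcium out of the cell in return for sodium.

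Of the other members, Slc8a1 had the pattern over arrays most like that of Ryr2, so the bases upstream of their starts are shown. The sequences are the 250 bases before the annotated start in RefSeq (GRCm38.p6), written 5′ to 3′ along the gene, and the capitals mark GATAAG, the letters that GATA factors are known to bind.
Ryr2, chr13:12106946-12107195, minus strand: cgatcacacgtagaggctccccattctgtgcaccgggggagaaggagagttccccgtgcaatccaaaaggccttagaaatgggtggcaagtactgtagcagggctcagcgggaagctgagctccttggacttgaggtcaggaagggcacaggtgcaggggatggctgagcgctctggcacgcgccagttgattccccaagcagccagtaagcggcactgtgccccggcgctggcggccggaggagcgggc
Slc8a1, chr17:81738388-81738637, minus strand: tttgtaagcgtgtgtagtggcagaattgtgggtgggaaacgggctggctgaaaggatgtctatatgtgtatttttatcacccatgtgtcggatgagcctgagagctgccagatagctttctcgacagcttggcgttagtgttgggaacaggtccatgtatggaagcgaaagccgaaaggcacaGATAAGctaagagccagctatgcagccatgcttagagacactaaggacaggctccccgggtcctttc
GATAAG was searched on both strands of the 10 windows listed for 8 of the member genes and found in 1 of the 10. That match was in Slc8a1, 67 bases before the start on the gene's own strand. GATAAG occurs in 6.55% of the 32851 windows of the same length. TATAAA, the core of the TATA box, was in none of the 10 windows and occurs in 12.4% of all windows. Base composition differed between the windows shown, with 63.2% G or C for Ryr2 and 50.4% for Slc8a1.

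All 19 arrays with a group had deposited median intensities between 60.74 and 62.45. Each of their titles carries a number, used here to name the array, and the labels do not say what it stands for. No stretch of these numbers holds more than 1 group, so number series and group cannot be told apart. The tTA arrays fall in 2 stretches, 7288 to 7311 and the arrays 9310 and 9322, on either side of the FVBN numbers 8177 to 8341. The beta-actin control probe sets gave a 3′ over 5′ log2 ratio, a measure of RNA integrity and labelling, that averaged 0.338 on the 13 tTA and tTA + Doxy arrays and 0.522 on the 6 FVBN arrays (exact two-sided permutation test, p = 0.00059, adjusted p = 0.00118 over 2 tests). The same ratio for Gapdh differed by -0.00103. The summed level of 12 cardiac muscle markers, of 13 listed, ran over 40600 to 44900 in tTA + Doxy, 39900 to 44900 in tTA, 41300 to 43600 in FVBN + Doxy and 41200 to 44000 in FVBN control. Of these 12, 0 passed in tTA against control, and 1 was higher in tTA + Doxy than in FVBN + Doxy. The sums of 8 smooth muscle and pericyte markers were 849 to 1020 in tTA + Doxy, 779 to 927 in tTA, 925 to 1080 in FVBN + Doxy and 1020 to 1070 in FVBN control. For 9 endothelial markers of 10 listed they were 2020 to 2210 in tTA + Doxy, 2130 to 2320 in tTA, 2080 to 2460 in FVBN + Doxy and 2370 to 2440 in FVBN control. Red blood cell markers, 2 of 4 listed, summed to 2450 to 5380 in tTA + Doxy, 2550 to 4630 in tTA, 5120 to 5620 in FVBN + Doxy and 4620 to 5130 in FVBN control. No listed marker of these types was at the floor on all arrays. Macrophage markers, 8 listed, summed to 881 to 1090 in tTA + Doxy, 856 to 992 in tTA, 1030 to 1130 in FVBN + Doxy and 949 to 1030 in FVBN control. In tTA against control, 1 of 7 tested smooth muscle markers, 1 of 9 endothelial, 0 of 9 fibroblast and 0 of 7 macrophage markers were lower and none higher. In tTA + Doxy against FVBN + Doxy, 1 of 7 smooth muscle markers was higher and 1 lower, and 0 of 9 endothelial markers passed. There, 1 of 9 fibroblast and 1 of 7 macrophage markers were lower. All 7 tested macrophage markers had differences below 0 in both comparisons. In each comparison, 8 of 9 endothelial, 4 of 7 smooth muscle and 2 of 2 red blood cell markers were below 0. For fibroblast markers the counts were 5 and then 7 of 9, and for cardiac muscle markers 7 and then 4 of 12. Over all 5658 genes, 2504 and then 3147 were below 0. The part of these cell type markers in the results that follow was not tested. In whole tissue, fewer cells of a type and less RNA per cell cannot be told apart.

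In tTA hearts against FVBN control, Ryr2, Cacna1c and 1 of 2 tested probe sets each of Slc8a1 and Itpr2 were lower, and no tested probe set of the uptake and storage genes passed the test. Of the 10 tested probe sets, 4 were lower, 0 higher and 6 did not pass limma's moderated test at an adjusted p of 0.05. Over all 7453 tested probe sets, 2.79% passed in either direction, 1.82% being lower and 0.966% higher, and 16.7% had an unadjusted p below 0.05. The groups did not overlap, with tTA lower, for 5 of the 10, against 6.09% of all tested probe sets. These 5 include both tested Itpr2 probe sets. The members were chosen with earlier results of these data known, so counts above the share of all probe sets are not independent evidence. In tTA + Doxy against FVBN + Doxy, 3 of the 10 were lower and 0 higher, against 1.6% and 4.27% of all tested probe sets. Over all, 5.86% passed in either direction and 21.1% had an unadjusted p below 0.05. In the normalised values, the groups did not overlap for 2 of the 10, against 3.49% of all. The FVBN control group has 2 arrays: without array 8177 only 2 of the 10 passed in tTA against control, and the count over all probe sets was 54, against 208 with it. When the beta-actin 3′ over 5′ ratio, which differed by genotype, entered the model, 1 of the 10 (Ryr2) passed and 27 over all probe sets.

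**Figure D1:**
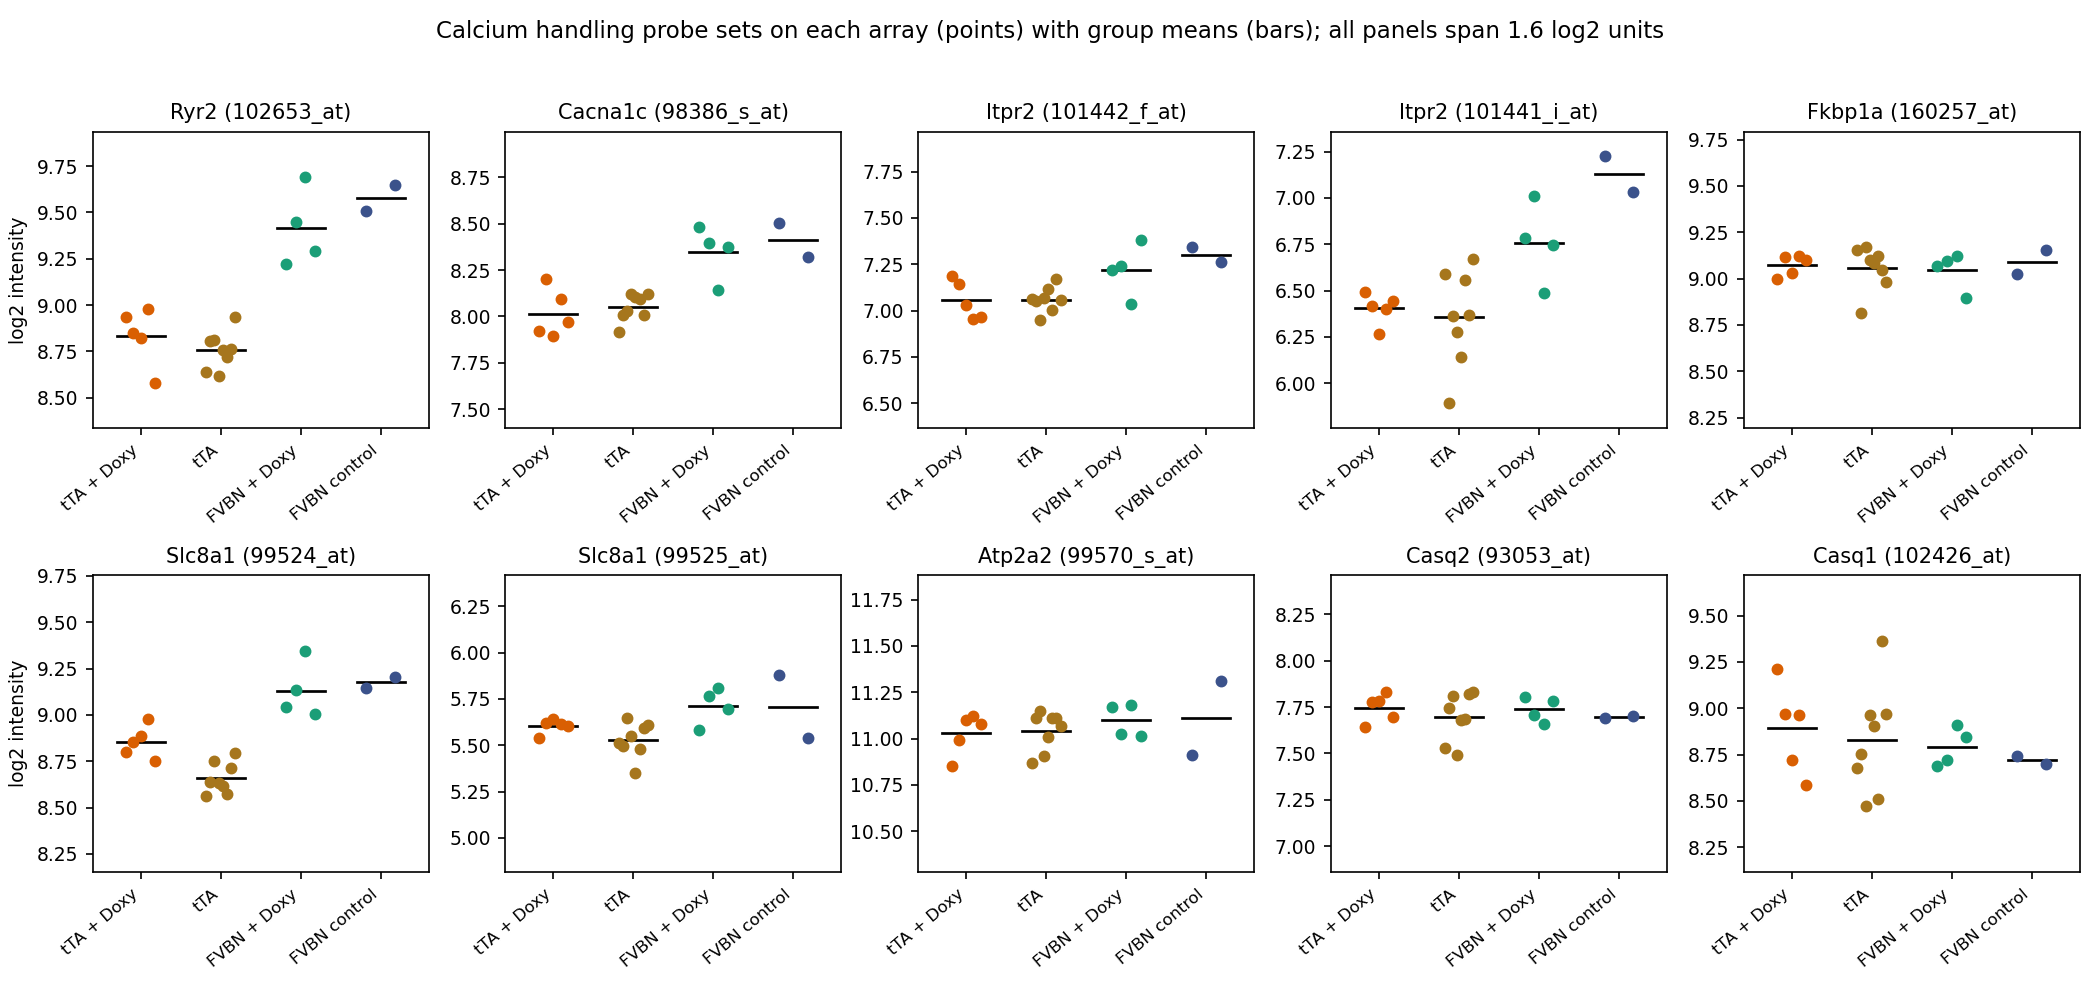
Normalised log2 intensity of each tested member probe set on every array, with groups along the horizontal axis from tTA + Doxy to FVBN control; each panel spans 1.6 log2 units, points are arrays and bars are group means. For Ryr2 the tTA + Doxy and tTA arrays sit between 8.58 and 8.98, and the FVBN + Doxy and FVBN control arrays between 9.22 and 9.69.

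Ryr2, the release channel, read 8.93, 8.85, 8.82, 8.98 and 8.58 log2 units on the tTA + Doxy arrays, and 8.62, 8.76 and 8.94 at the lowest, median and highest of the tTA arrays. It read 9.22, 9.45, 9.69 and 9.29 in FVBN + Doxy, and 9.51 and 9.65 in FVBN control. All 13 tTA and tTA + Doxy arrays were below all 6 FVBN arrays. The tTA arrays read 8.62 to 8.81 in the stretch 7288 to 7311, and 8.76 and 8.94 on arrays 9310 and 9322. Group means were 8.83 ± 0.15 in tTA + Doxy, 8.76 ± 0.10 in tTA, 9.41 ± 0.21 in FVBN + Doxy and 9.58 ± 0.099 in FVBN control (SD, n = 5, 8, 4 and 2). Ryr2 was lower by a log2 difference of -0.82 ± 0.10 (SE, 95% interval -1.03 to -0.61, limma adjusted p = 5.94e-05) in tTA than in control. That is 1.76-fold, and it ranked 8 from the lowest of 7453. With Doxy in both genotypes the difference was -0.58 ± 0.09 (interval -0.76 to -0.40, adjusted p = 0.000527), or 1.5-fold, and ranked 17. Both calls held under the 31 alternatives run, with differences of -0.93 to -0.71 without Doxy and -0.66 to -0.49 with it.

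Cacna1c, the pore of the L-type channel, read 7.92, 8.20, 7.89, 8.09 and 7.97 in tTA + Doxy, and 7.92, 8.06 and 8.12 at the lowest, median and highest of tTA. The values were 8.48, 8.40, 8.14 and 8.37 in FVBN + Doxy and 8.50 and 8.32 in FVBN control. The tTA arrays were all below control, but with Doxy array 7424 (8.20) was above FVBN + Doxy array 8340 (8.14), so those groups overlapped. Cacna1c was lower by -0.36 ± 0.08 (interval -0.53 to -0.19, limma adjusted p = 0.0165) in tTA than in control, and by -0.33 ± 0.07 (interval -0.48 to -0.19, adjusted p = 0.00555) in tTA + Doxy than in FVBN + Doxy. The folds were 1.28 and 1.26. The first call ended without control array 8177 (-0.27, adjusted p = 0.381), with all probe sets kept (-0.36, adjusted p = 0.0548) and with the beta-actin ratio in the model (-0.40, adjusted p = 0.117). The probe set name ends in _s_at, which marks probes shared between transcripts.

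Itpr2, an inositol trisphosphate receptor and so another kind of release channel, had 2 tested probe sets that differed in their calls. The probe set 101441_i_at read 6.49, 6.42, 6.27, 6.40 and 6.44 in tTA + Doxy and 5.89, 6.37 and 6.67 at the lowest, median and highest of tTA, against 6.78, 7.01, 6.49 and 6.75 in FVBN + Doxy and 7.22 and 7.03 in FVBN control. Its 8 tTA arrays were below both control arrays, by -0.77 ± 0.15 (interval -1.09 to -0.45, limma adjusted p = 0.00897), 1.71-fold. With Doxy in both genotypes the difference was -0.35 ± 0.13 (interval -0.63 to -0.08, adjusted p = 0.121), and the highest tTA + Doxy and the lowest FVBN + Doxy array both read 6.49. The call in tTA against control ended without either control array (-0.67, adjusted p = 0.216, without 8177 and -0.87, adjusted p = 0.0607, without 8182). It also ended with the beta-actin ratio in the model (-0.55, adjusted p = 0.284) and when only the compared arrays were fitted (-0.77, adjusted p = 0.053). The brighter probe set, 101442_f_at, differed by -0.24 ± 0.07 (interval -0.39 to -0.09, adjusted p = 0.0741) in tTA against control and by -0.16 ± 0.06 (interval -0.29 to -0.03, adjusted p = 0.127) with Doxy. Its tTA arrays read 6.95 to 7.17 and its control arrays 7.34 and 7.26, so those groups did not overlap. Names ending in _i_at and _f_at mark incomplete probe sets and probes shared within a gene family, so these readings may include other transcripts. The other Itpr2 probe sets, 94565_at and 96420_at, had deposited intensities of 13.2 to 16.22 and 11.32 to 14.39, at the floor of 14.37 on 5 and 19 arrays, and were not tested.

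Fkbp1a (FKBP12), an immunophilin that binds ryanodine receptors, read 9.0, 9.12, 9.03, 9.12 and 9.10 in tTA + Doxy, and 8.82, 9.09 and 9.17 at the lowest, median and highest of tTA. FVBN + Doxy read 9.07, 9.10, 9.12 and 8.90, and control 9.02 and 9.15. The groups overlapped. The differences were -0.03 (interval -0.19 to 0.13, limma adjusted p = 0.888) in tTA against control and 0.03 (interval -0.10 to 0.16, adjusted p = 0.835) in tTA + Doxy against FVBN + Doxy.

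Slc8a1, the sodium-calcium exchanger, had 1 bright probe set, 99524_at, that read 8.80, 8.86, 8.89, 8.98 and 8.75 in tTA + Doxy and 8.56, 8.63 and 8.79 at the lowest, median and highest of tTA. FVBN + Doxy read 9.04, 9.13, 9.34 and 9.0, and control 9.15 and 9.20. Each tTA array was below each control array, and each tTA + Doxy array was below each FVBN + Doxy array, the closest pair being 8.98 and 9.0. With Doxy, this separation holds only in the normalised values. In deposited intensity, tTA + Doxy array 7486 (519.5) was above FVBN + Doxy arrays 8337 (518) and 8341 (505.5). The differences were -0.52 ± 0.08 (interval -0.67 to -0.36, limma adjusted p = 0.000312) without Doxy and -0.28 ± 0.06 (interval -0.41 to -0.14, adjusted p = 0.0133) with it, 1.43-fold and 1.21-fold lower. Both calls ended with the beta-actin ratio in the model (-0.43, adjusted p = 0.0534, without Doxy, and -0.22, adjusted p = 0.0803, with it), and the second also without FVBN + Doxy array 8340 (-0.205, adjusted p = 0.057). The dimmer probe set 99525_at, at 5.35 to 5.88 log2 units over the 19 arrays, differed by -0.18 ± 0.08 (interval -0.34 to -0.02, adjusted p = 0.235) and -0.11 ± 0.06 (interval -0.25 to 0.02, adjusted p = 0.337). A further probe set, 93168_at, was at the floor on all 19 arrays, with deposited intensities of 9.218 to 10.77, and was not tested.

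Atp2a2, the reticulum pump, had the probe set 99570_s_at, whose name also marks probes shared between transcripts. Atp2a2 read 10.85, 10.99, 11.10, 11.12 and 11.08 in tTA + Doxy and 10.87, 11.09 and 11.15 at the lowest, median and highest of tTA. FVBN + Doxy read 11.17, 11.03, 11.18 and 11.02, and the control arrays read 10.91 and 11.31, the widest range of the 4 groups. Its differences were -0.07 ± 0.09 (interval -0.25 to 0.12, limma adjusted p = 0.757) in tTA against control and -0.07 ± 0.08 (interval -0.23 to 0.09, adjusted p = 0.63) with Doxy. Casq2, the cardiac calsequestrin, read 7.64, 7.78, 7.78, 7.83 and 7.69 in tTA + Doxy and 7.49, 7.71 and 7.83 at the lowest, median and highest of tTA, against 7.80, 7.71, 7.66 and 7.78 in FVBN + Doxy and 7.69 and 7.70 in control. The groups overlapped in both comparisons, with differences of 0.00 ± 0.08 (interval -0.15 to 0.16, adjusted p = 0.985) and 0.01 ± 0.06 (interval -0.13 to 0.14, adjusted p = 0.956). For both genes the intervals leave out the size of the Ryr2 difference in the same comparison.

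Casq1, the calsequestrin of skeletal muscle, averaged 8.825 log2 units over the 19 arrays, above the 7.719 of the cardiac Casq2. Whether its probe set reads Casq1 RNA alone was not tested. Casq1 had the largest standard errors of the tested members in both genotype comparisons. It read 9.21, 8.97, 8.72, 8.97 and 8.59 in tTA + Doxy and 8.47, 8.83 and 9.36 at the lowest, median and highest of tTA, against 8.69, 8.72, 8.91 and 8.84 in FVBN + Doxy and 8.74 and 8.70 in control. The groups overlapped, with differences of 0.11 ± 0.18 (interval -0.27 to 0.48, limma adjusted p = 0.816) and 0.10 ± 0.15 (interval -0.22 to 0.42, adjusted p = 0.737). The highest reading was on tTA array 9310, whose 15 skeletal muscle markers summed to 1700, within the 1600 to 1750 of the tTA group, and whose 4 atrial markers summed to 603, the highest of the 19 arrays. Of these markers, 8 of 15 skeletal muscle and 3 of 4 atrial ones were bright enough to be tested, and Myh1 was at the floor on all arrays. The brightest of each list were Pvalb and Nppa, with mean log2 intensities of 9.59 and 8.12. The part of these markers in the reading was not tested. Calr, calreticulin, a calcium-binding chaperone of the reticulum, had deposited intensities of 14.46 to 17.97, near the floor, and was not tested.

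**Figure D2:**
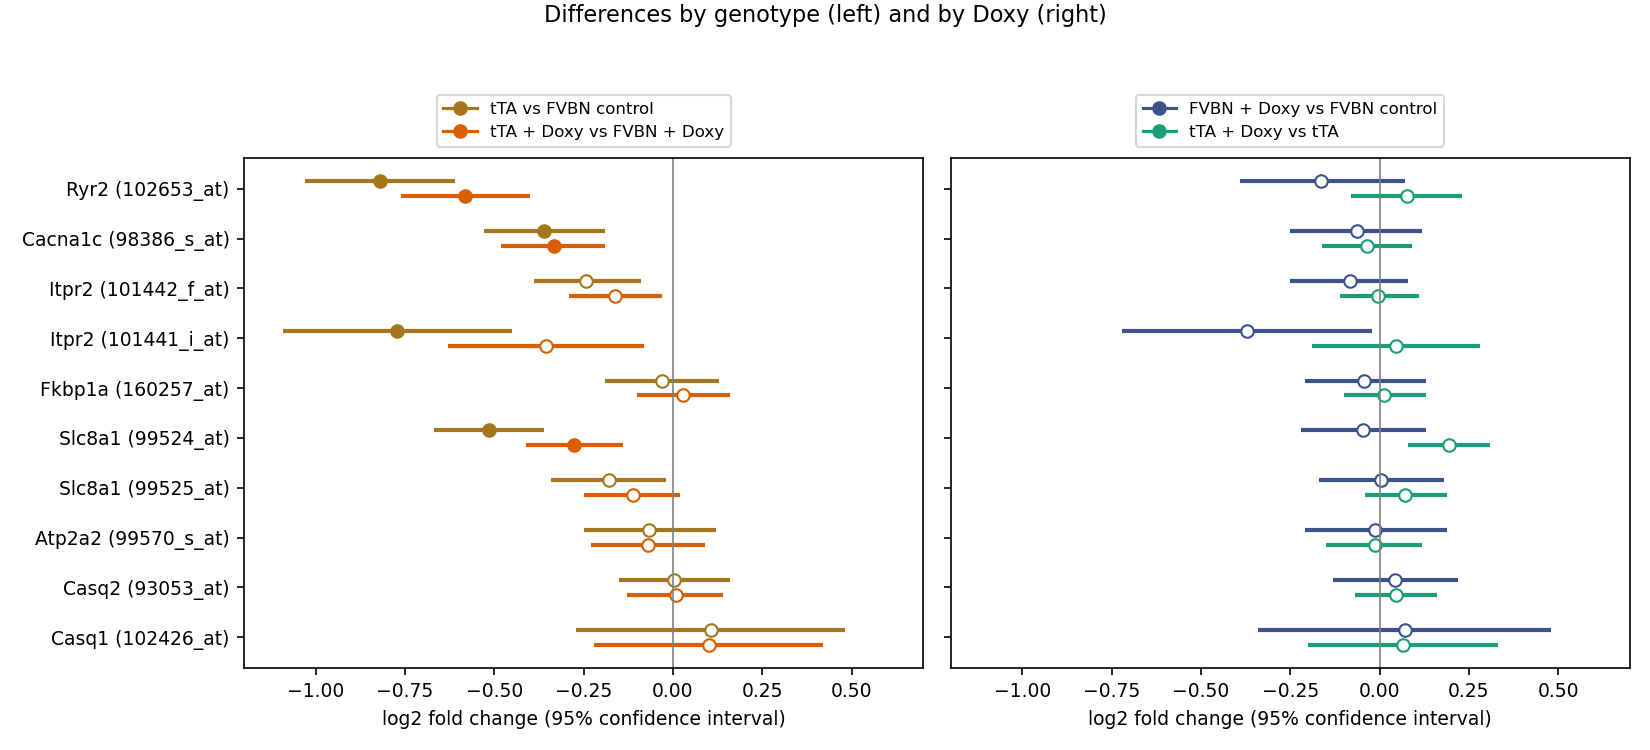
Log2 difference with its 95% interval for each tested member probe set, by genotype in the left panel and by Doxy in the right; filled points pass an adjusted p of 0.05 and open points do not. Ryr2, Slc8a1 (99524_at) and Cacna1c pass in both genotype comparisons, Itpr2 101441_i_at passes in tTA against FVBN control, and 0 of 10 pass by Doxy.

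Counted by role at the brightest tested probe set of each gene, 2 of 4 release and entry genes fell (Ryr2 and Cacna1c) and 2 did not pass in tTA against control, with a median log2 difference of -0.302. The exchange gene fell. Of the 3 uptake and storage genes tested, 0 passed, with a median of 0.00357. An unadjusted p below 0.05 was found for 3 of 4 release and entry, 1 of 1 exchange and 0 of 3 uptake and storage genes. The share over all genes was 17.3%. Over all 5658 genes the median was 0.0147, with 57 higher and 110 lower. With Doxy in both genotypes, 2 of 4, 1 of 1 and 0 of 3 passed, all of them lower. The medians of these lists were -0.248, -0.276 and 0.00769, against -0.0134 over all genes, 257 of which were higher and 94 lower. The difference between the lists was not tested.

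**Figure D3:**
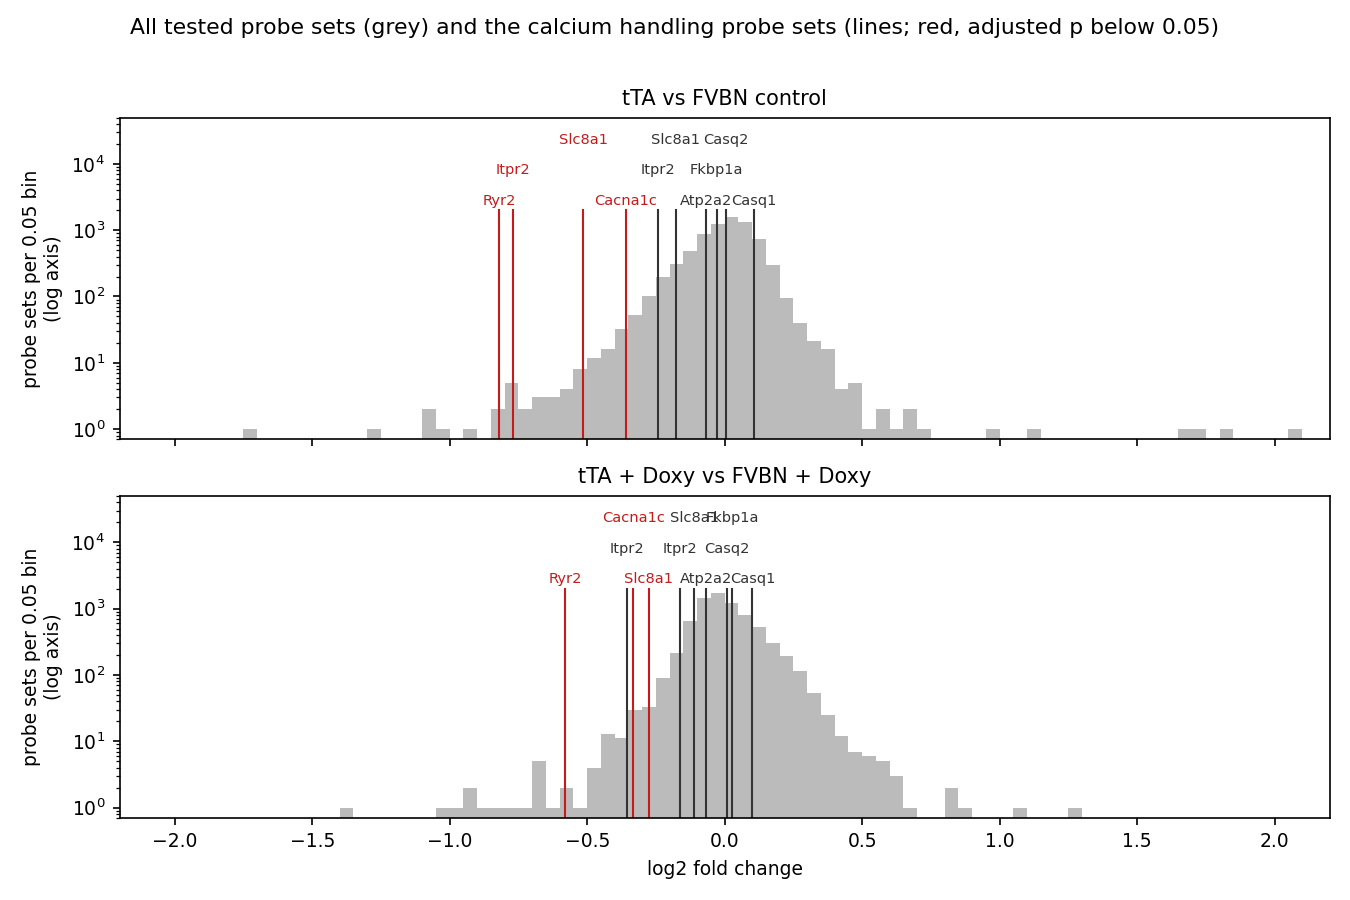
Distribution of log2 differences over the 7453 tested probe sets, without Doxy in the upper panel (tTA and FVBN control) and with Doxy in the lower; the count per bin is on a log axis, lines mark the tested members, and red lines pass an adjusted p of 0.05. Ryr2 lies 8 from the lowest in the first comparison and 17 from the lowest in the second.

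Doxy itself moved no member past the threshold. In tTA + Doxy against tTA, 0 of the 10 probe sets passed limma's test and 1 had an unadjusted p below 0.05, against 0.0671% and 7.65% of all tested probe sets. That probe set was Slc8a1 99524_at, higher on 5 of 5 tTA + Doxy arrays than the tTA mean, with a difference of 0.19 ± 0.05 (interval 0.08 to 0.31, unadjusted p = 0.00186, adjusted p = 0.309) and groups that overlapped. Ryr2 differed by 0.08 ± 0.07 (interval -0.08 to 0.23, adjusted p = 0.865). The 10 differences spanned -0.03 to 0.19. In FVBN + Doxy against FVBN control, 0 of 10 passed and 1 had an unadjusted p below 0.05, against 0.0403% and 11.8% of all. Itpr2 101441_i_at differed there by -0.37 ± 0.17 (unadjusted p = 0.04, adjusted p = 0.407) and Ryr2 by -0.16 ± 0.11 (interval -0.39 to 0.07, adjusted p = 0.554), within a span of -0.37 to 0.07. For Itpr2 101441_i_at, FVBN + Doxy read 6.49 to 7.01 and control 7.03 and 7.22, so those groups did not overlap.

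The difference between the Doxy effect in tTA and that in FVBN passed for 0 of 10 members, and 1 had an unadjusted p below 0.05, against 0.0134% and 14.6% of all tested probe sets. For Ryr2 it was 0.24 ± 0.13 (interval -0.04 to 0.52, limma adjusted p = 0.402), for Slc8a1 99524_at 0.24 ± 0.10 (interval 0.03 to 0.45, adjusted p = 0.298), for Itpr2 101441_i_at 0.42 ± 0.20 (adjusted p = 0.347) and for Cacna1c 0.03 ± 0.11 (interval -0.19 to 0.25, adjusted p = 0.914). The 1 with an unadjusted p below 0.05 was Slc8a1 99524_at (limma unadjusted p = 0.0253), and Ryr2 had 0.0883. After adjustment, the smaller Ryr2 and Slc8a1 differences under Doxy were not shown to differ from those without it.

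Over the 19 arrays, Slc8a1 99524_at had the pattern most like that of Ryr2, with a Pearson r of 0.938 among 6692 candidate probe sets linked to 1 gene. It was followed by Lclat1, an acyltransferase of cardiolipin metabolism (0.938), Pip5k1b, a phosphoinositide kinase (0.926), Nsmce1, a subunit of a chromosome maintenance complex (0.926), and Ndufa6, a subunit of respiratory complex I (0.921). These values include the genotype difference that the probe sets share, and after removing group means r was 0.84 for Slc8a1, 0.562 for Lclat1, 0.641 for Pip5k1b, 0.335 for Nsmce1 and 0.627 for Ndufa6. Cacna1c ranked 126 (r = 0.719), and r of its deviations from group means was -0.277. FVBN + Doxy array 8340 had the highest Ryr2 reading of the 19 arrays (9.69) and the lowest Cacna1c reading of its group (8.14). The sign of this r and its dependence on that array were not tested. The values for the genes of uptake and storage were 0.345 for Atp2a2, 0.124 for Casq2 and -0.0392 for Casq1, and after removing group means 0.288 for Atp2a2, 0.252 for Casq2 and 0.352 for Casq1.

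Within the 8 tTA arrays alone, 3 pairs were compared. Ryr2 and Slc8a1 had Pearson's r = 0.785 (exact permutation p = 0.0189, adjusted p = 0.0567 over 3 pairs) and Spearman's rho = 0.833 (exact permutation p = 0.0154, adjusted p = 0.0462). Without the 2 arrays farthest from the Ryr2 median, r was 0.749, and over the 6 arrays numbered 7288 to 7311 it was 0.595. For Ryr2 and Cacna1c, r was 0.265 (exact permutation p = 0.528, adjusted p = 0.528) and rho 0.119 (exact permutation p = 0.793), and r was -0.00214 over those 6 arrays. For Slc8a1 and Cacna1c, r was 0.273 (exact permutation p = 0.506) and rho 0.357 (exact permutation p = 0.389).

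**Figure D4:**
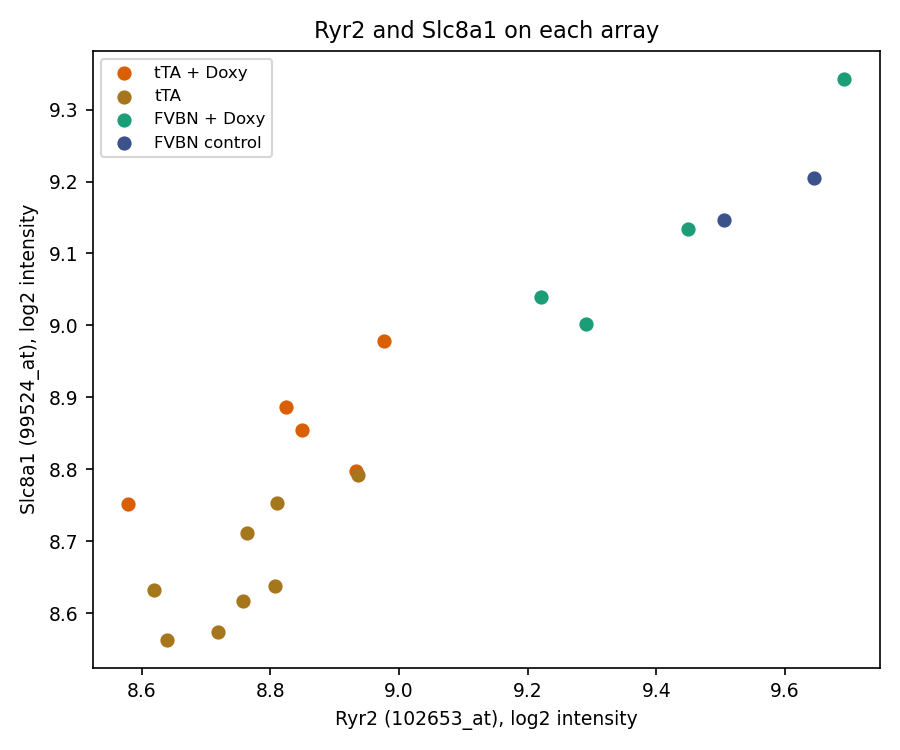
Ryr2 (102653_at) and Slc8a1 (99524_at) normalised log2 intensity on each of the 19 arrays, coloured by group. The tTA + Doxy and tTA arrays have Ryr2 values at or below 8.98, and the FVBN + Doxy and FVBN control arrays have values at or above 9.22.

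Other genes of calcium handling were listed by role, and of 79 listed, 48 had a probe set of their own and 33 were tested. In tTA against FVBN control 0 of 33 passed limma's test, 6 had an unadjusted p below 0.05, which is 18.2%, against 17.3% of all 5658 genes, and their median difference was 0.0175. In tTA + Doxy against FVBN + Doxy, 1 was higher and 1 lower, which is 6.06%, against 6.2% of all genes, and 7 had an unadjusted p below 0.05 (21.2%, against 21.8%), with a median of -0.0261. These shares are near the background, and the genes are named by the rule for called genes. The lower one was Sri, sorcin, a calcium-binding protein that modulates ryanodine receptors, at 7.79 ± 0.17 in tTA + Doxy and 8.20 ± 0.095 in FVBN + Doxy (SD, n = 5 and 4), a difference of -0.41 ± 0.07 (limma adjusted p = 0.00179). In FVBN control, Sri read 7.74 and 7.94, and in tTA against control it differed by -0.14 ± 0.09 (adjusted p = 0.448). Between the FVBN groups, Sri was higher with Doxy by 0.36 ± 0.09 (limma unadjusted p = 0.000909, adjusted p = 0.199). All 4 FVBN + Doxy arrays were above the control mean of 7.84. The higher gene was Ppp1cc, a catalytic subunit of protein phosphatase 1, at 7.80 ± 0.054 in tTA + Doxy and 7.48 ± 0.17 in FVBN + Doxy, a difference of 0.32 ± 0.08 (adjusted p = 0.0177). Its call ended without FVBN + Doxy array 8337 (0.31, adjusted p = 0.0533) or 8341 (0.25, adjusted p = 0.0808) and with all probe sets kept (0.32, adjusted p = 0.0616). For Doxy, 0 of 33 passed in tTA, 0 in FVBN and 0 for the difference of Doxy effects. An unadjusted p below 0.05 was found for 3 in tTA (9.09%, against 7.83% of all genes), 8 in FVBN (24.2%, against 12.2%) and 7 for the difference (21.2%, against 15%).

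**Figure D5:**
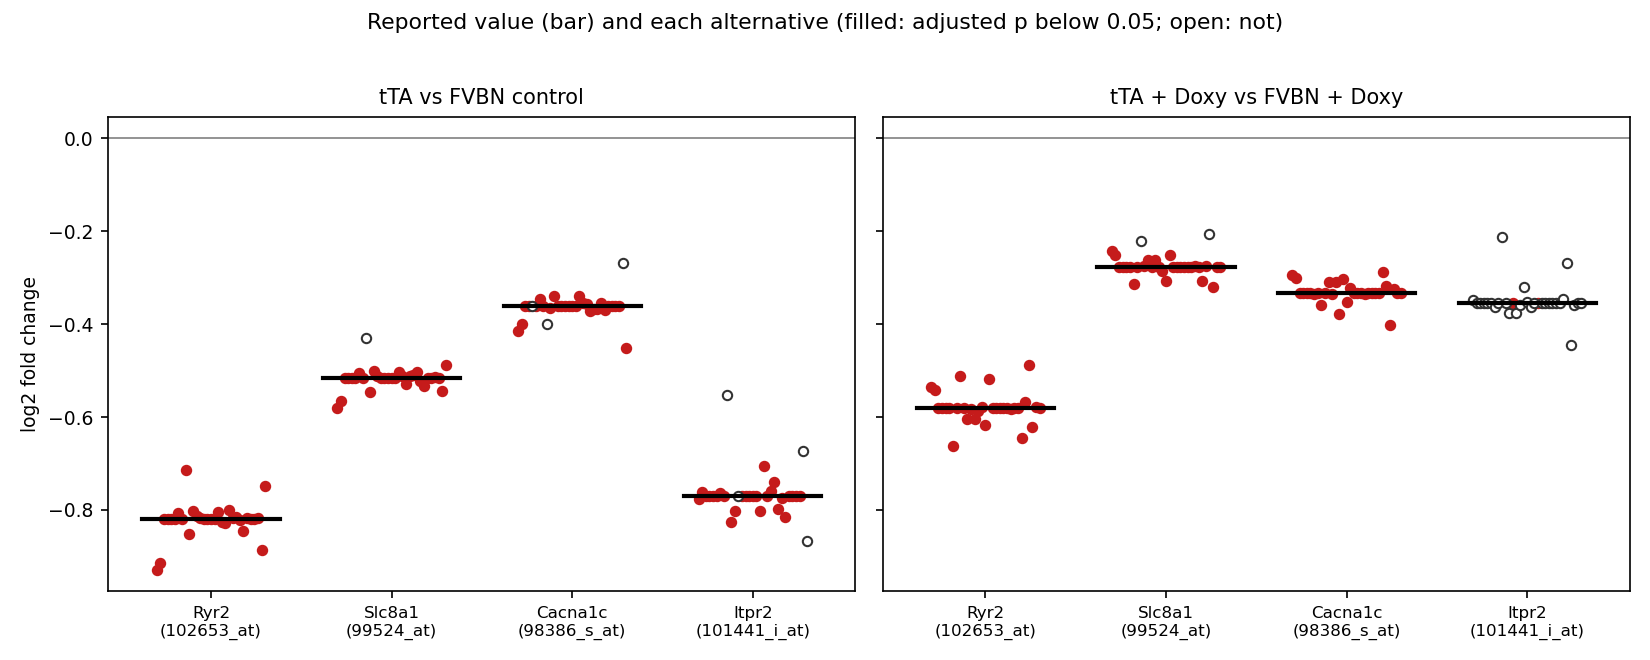
Log2 difference for Ryr2, Slc8a1 99524_at, Cacna1c and Itpr2 101441_i_at under each alternative, by genotype without Doxy (left) and with it (right); the bar is the reported value, filled points pass an adjusted p of 0.05 and open points do not. The Ryr2 points run from -0.93 to -0.71 and from -0.66 to -0.49, and all are filled.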

How the data were processed

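Total RNA of mouse ventricle was measured on 20 Affymetrix arrays, of which 19 have a group from their titles; 1 does not and entered no comparison. The deposited values are intensities on a linear scale, 1 per probe set and array, which already share a nearly common median. The method of summarising and scaling is not given in the sources used here. Probe sets were named through the GEO platform annotation: 10833 were linked to 1 gene, 396 to several and 1193 to none, and only those linked to 1 gene were named. Gene symbols came from RefSeq.

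After leaving out 66 control probe sets, the 12422 others were quantile normalised over the 19 arrays, set to a floor at the 10th percentile (14.37), log2 transformed and reduced to the brightest 60% by mean (7453). One linear model with a mean for each of the 4 groups was fitted with limma 3.58.1 (R 4.3.3, lmFit, eBayes with trend and robust), with Benjamini-Hochberg adjustment over all tested probe sets and a threshold of 0.05. Alternatives changed the scaling, floor, filter, variance moderation, array weights and arrays in the fit. The precision is limited by the number of arrays, above all the 2 of FVBN control. The rule for named genes was to describe every probe set linked to a listed gene, leading with the brightest, to name each called gene of the wider calcium lists up to 5 per direction, and the 5 probe sets most like Ryr2. The members and lists were chosen with earlier results of these data known. No protein sequences and no promoter of Atp2a2 or Itpr1 were used here.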

Additional observations from a re-analysis of the deposited data

How the results depend on the processing

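The 42 results for single probe sets were recomputed under 12 alternatives and with each of the 19 arrays left out, giving 1291 values; 1236 kept direction and call, 13 lost a call, 5 gained one, and 37 changed sign, with 0 sign changes among called differences. No paired analysis was run, because the groups share no number in their titles and the labels name no pairs. The comparison of Doxy effects was not run on only the arrays compared. The cause of each change below was not tested.

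The count called in tTA against FVBN control, 208, was 27 when the beta-actin 3′ over 5′ ratio entered the model (the covariate below), and that of the calcium members 1 instead of 4. In tTA + Doxy against FVBN + Doxy, 437 became 282 with all probe sets kept and 703 with array weights. In FVBN + Doxy against control, 3 became 1 with all probe sets kept, 8 without arrays 9310 and 9322, 5 without 7288 and 7399, and 5 with only the arrays compared. In tTA + Doxy against tTA, 5 became 10 with median scaling, 11 without further scaling, 2 with all probe sets kept, 11 with array weights, 3 without 9310 and 9322, and 2 without 7288 and 7399. The difference of Doxy effects, 1, became 6 with median scaling, 6 without further scaling, 0 with all probe sets kept, 5 with the brightest 40%, 4 without 9310 and 9322, and 0 without 7288 and 7399.

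Leaving out 1 array at a time gave counts of 54 to 240 (54 without control array 8177, 63 without 8182) and 2 to 5 for the members in tTA against control, 241 to 493 and 3 to 4 in tTA + Doxy against FVBN + Doxy, 1 to 7 in FVBN + Doxy against control, 3 to 23 in tTA + Doxy against tTA and 0 to 4 for the difference of Doxy effects.

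Among differences that were not called, Fkbp1a in tTA against control was 0.0786 with the covariate. There, Casq2 was -0.0258 with median scaling, -0.011 without further scaling and -0.0391 without 9310 and 9322, and Casq1 was -0.00723 without those 2 arrays. Itpr2 101442_f_at in tTA + Doxy against tTA was 0.00468 with median scaling, 0.00259 with the covariate and 0.0149 without 9310 and 9322. Over arrays left out singly, Fkbp1a ran from -0.0955 to 0.0374 and, with Doxy, -0.0229 to 0.0521, Atp2a2 from -0.268 to 0.131, Casq2 from -0.0155 to 0.0336 and -0.0191 to 0.0339, Cacna1c from -0.154 to 0.0288 in FVBN + Doxy against control and -0.0639 to 0.119 for the difference of Doxy effects, and Slc8a1 99525_at from -0.168 to 0.177 and -0.105 to 0.24 for the same. In tTA + Doxy against tTA, Itpr2 101442_f_at ran from -0.0365 to 0.022 and 101441_i_at from -0.0206 to 0.0909. The Itpr2 probe set 101442_f_at passed when only the arrays of tTA and control were fitted (adjusted p = 0.0499) and without array 8340 (0.0477, and 0.0381 with Doxy). The probe set 101441_i_at passed with Doxy when only the arrays compared were fitted (0.0313) and without array 7292 (0.0465).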

Other observations

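The array with no group in its title had deposited intensities of 675 for Ryr2, 457 for Slc8a1 99524_at, 391 for Cacna1c, 173 and 166 for Itpr2 101442_f_at and 101441_i_at, 491 for Fkbp1a, 2000 for Atp2a2, 192 for Casq2 and 414 for Casq1. On the 13 tTA and tTA + Doxy arrays Ryr2 lay between 384 and 519, and on the 6 FVBN arrays between 576 and 837. Slc8a1 lay between 379 and 519 on the tTA and tTA + Doxy arrays and between 505 and 650 on the FVBN arrays. Cacna1c on this array was above the 240 to 375 of the 19 arrays with a group, as were both Itpr2 values, against 125 to 166 and 60 to 149.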
